A study of Mus musculus with 18 samples.

Results

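The nuclear factor I family (Nfia, Nfib, Nfic and Nfix) was examined in side population (SP) and nonSP cells of mouse lung carcinoma cell lines. Every probe set annotated to 1 of these 4 genes and to no other gene was taken, which gave 23 of the 34945 probe sets with 1 gene symbol and 4 of 18193 genes. Nfia had 6 probe sets, Nfib 7, Nfic 5 and Nfix 5. Affymetrix 3' expression arrays had been run on RNA of SP cells, which stain weakly with Hoechst since efflux pumps of the ATP-binding cassette family export this dye, and of nonSP cells, which retain it. The lines A2C12, betaD5 and cRAF_cMYC had been established from lung tumours of mice that carried both a c-myc and a c-raf transgene and were 8 months old, so both fractions of every line share these transgenes. Their promoters and the number of animals behind each line are not given in the sources used here. There were 3 arrays for each line and fraction, numbered 1 to 3, and 18 arrays in 6 groups. Nothing states whether these came from separate cultures or sorts, so p-values measure only the spread between these samples, which may be technical.

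Nuclear factor I proteins bind DNA as homodimers and heterodimers through a shared amino-terminal domain, at a palindrome whose ends read TTGGC and GCCAA, and they activate or repress transcription through more variable carboxy-terminal regions. Nfia and Nfib drive the formation of glia in the nervous system, and Nfib is also required for the maturation of the fetal lung and is amplified in mouse models of small cell lung cancer. Nfic is known for its part in tooth root formation, and Nfix for the switch to the fetal programme in skeletal muscle and for neural stem cell quiescence. The family was singled out with the SP minus nonSP differences and the levels per line of these arrays in view, so both are described without a test.

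The promoters of Nfix and Nfic are shown for the 250 bases before a transcription start, as given by RefSeq on GRCm38.p6. By their most intense probe sets, these members had the most similar profiles over the arrays. RefSeq promoters were matched for Nfix (4 starts), Nfic (1 start) and Nfia (1 start), and for Nfix the most upstream start is printed. The Nfix stretch lies at chr8:84780083-84780332 on the minus strand and has a GC content of 49.2%. The Nfic stretch lies at chr10:81427174-81427423 on the minus strand and has a GC content of 63.2%, against a median of 52.4% over all promoters.
Nfix: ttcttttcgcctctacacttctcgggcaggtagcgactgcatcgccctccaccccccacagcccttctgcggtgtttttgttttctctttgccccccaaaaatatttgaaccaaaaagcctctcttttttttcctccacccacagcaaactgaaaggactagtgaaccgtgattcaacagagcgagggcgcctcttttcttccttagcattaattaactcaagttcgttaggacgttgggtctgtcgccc
Nfic: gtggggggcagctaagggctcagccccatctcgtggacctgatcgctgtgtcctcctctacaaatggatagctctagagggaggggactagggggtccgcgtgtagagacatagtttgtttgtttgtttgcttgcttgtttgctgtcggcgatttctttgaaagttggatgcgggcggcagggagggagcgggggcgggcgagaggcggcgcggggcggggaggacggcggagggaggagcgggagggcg
Both strands were searched for the full site, TTGGC and GCCAA with 5 bases of any kind between them, and for the single-sided site TTGGCA, which reads TGCCAA on the other strand and which a full site can contain. Neither motif was found in any of the 6 matched stretches, so no base is in capitals. Of 32851 RefSeq promoters of the same length, 12 (0.0365%) held the full site and 4034 (12.3%) the single-sided one.

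The deposited values are log2 signals that lay between 2.28 and 15.28. Array medians ran from 5.80 to 6.06 in A2C12 and up to 6.72 in the other lines, so levels between lines are given both as deposited and after centring each array on its median. The 6 A2C12 arrays stood apart, whereas both arrays of betaD5 1 resembled cRAF_cMYC arrays and both arrays of cRAF_cMYC 3 resembled betaD5 arrays. Lines keep the names of their labels here, and the main values of the members are also given without these pairs. Abcg2, a transporter that exports Hoechst, was higher in the SP array of 8 of 9 pairs, by 0.25 ± 0.24 on the log2 scale (SD, n = 9 pairs). By the mean over all 18 arrays, all 7 mesenchymal markers were above the level filter, with Vim at 14.25 and Col1a2 at 13.86. In A2C12, however, Thy1 averaged 5.33, below the filter, against 7.64 in betaD5 and 9.18 in cRAF_cMYC. Only 4 of 11 lung epithelial markers were above it: Epcam at 8.88, Krt8 at 8.70, Sftpb at 7.75 and Krt18 at 6.81 (6.44 in A2C12). Sftpc, Sftpa1, Sftpd, Nkx2-1, Scgb1a1, Foxj1 and Cdh1 lay below it, although Nkx2-1 averaged 6.76 in betaD5. Of the 5 leukocyte markers 3 were above the filter: Csf1r at 9.47, Cd68 at 7.38 and Cd3e at 7.16. Ptprc, which defines leukocytes, lay below it at 3.91, as did Cd79a at 5.82. Of the 3 endothelial markers 1 was above it, Kdr at 7.19. The filter is the mean level of 6.53 below which the lowest 40% of genes fall.

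Nfix had lower signals in SP than in nonSP cells in most pairs. By 1436363_a_at, the most intense Nfix probe set, the A2C12 arrays 1, 2 and 3 read 10.25, 10.61 and 11.03 in SP cells and 10.25, 11.11 and 11.39 in nonSP cells (log2 signal). The betaD5 arrays read 11.30, 11.43 and 13.10 in SP cells and 12.71, 12.71 and 12.97 in nonSP cells. The cRAF_cMYC arrays read 11.11, 12.14 and 12.50 in SP cells and 11.37, 12.46 and 12.73 in nonSP cells. Within each line the SP and nonSP ranges overlapped, and in betaD5 the SP arrays 1 and 2 lay below all nonSP arrays while SP array 3 lay above them. Taken by number, the SP minus nonSP differences were -0.0016, -0.49 and -0.36 in A2C12, -1.40, -1.28 and 0.13 in betaD5, and -0.26, -0.32 and -0.23 in cRAF_cMYC. They averaged -0.47 ± 0.53 (SD, n = 9 pairs), and 8 of 9 were below 0, or 7 of 9 after median centring. The most negative differences were those of betaD5 1 and 2, and the cRAF_cMYC differences lay closest together. In bulk RNA of a sorted fraction, fewer cells that express a gene and less RNA per cell cannot be told apart.

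**Figure D1:**
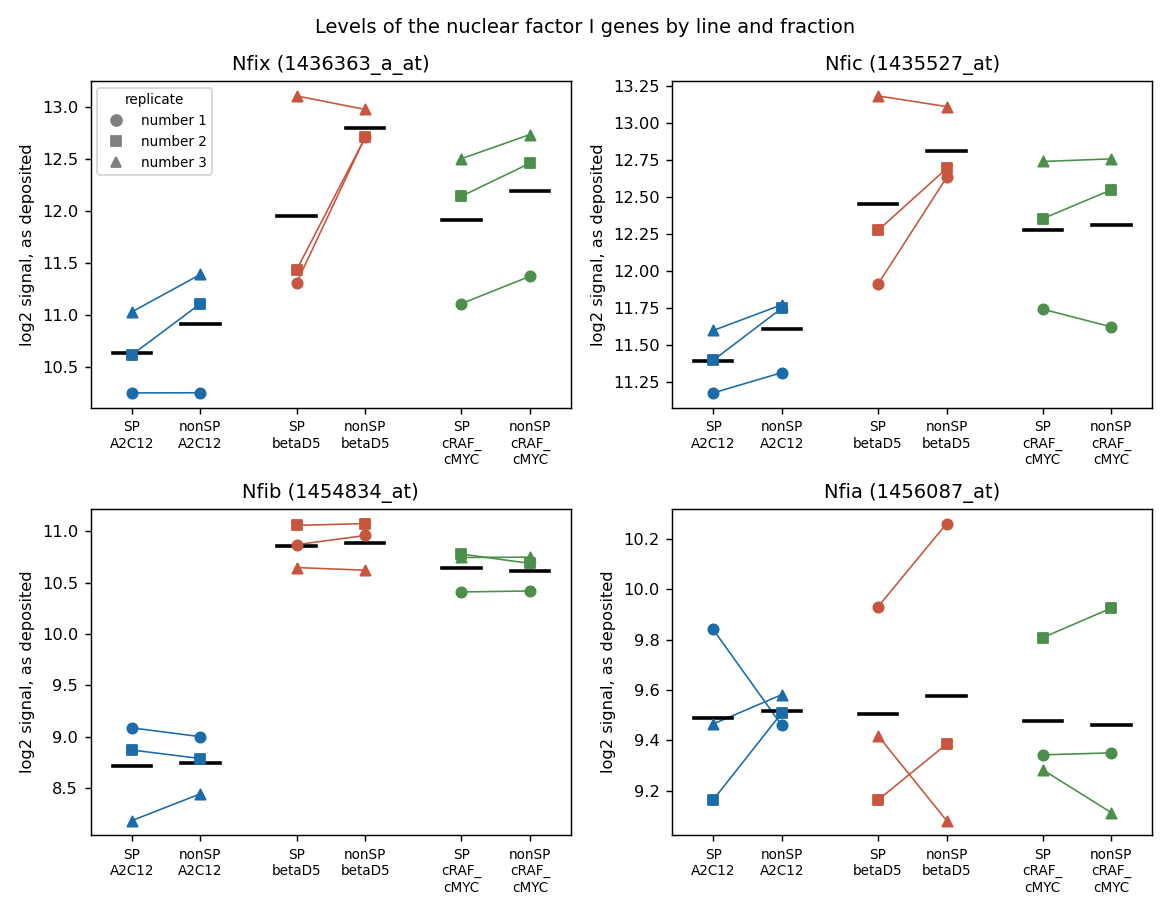
Log2 signals as deposited of the probe set with the highest mean of each nuclear factor I gene, by line and fraction, with SP left of nonSP. Symbols mark the replicate number, lines join same-numbered arrays and black bars are group means of 3 arrays. The Nfix signal is lower in SP than in nonSP cells in betaD5 1 and 2 and higher in betaD5 3, and Nfib in A2C12 lies between 8.18 and 9.08, below all arrays of the other lines.

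The Nfix probe sets did not agree throughout. The probe set 1436364_x_at gave -0.45 ± 0.55 (SD, n = 9 pairs) and followed 1436363_a_at closely, with r = 0.97 over the 9 pair differences. The probe set 1423493_a_at, gave -0.43 ± 0.55, with r = 0.65 to 1436363_a_at, and its most negative difference was -1.76, in betaD5 2. Each of these 3 was lower in SP cells in 8 of 9 pairs. Across the array, 986 of 34945 probe sets (2.82%) were lower in SP cells in at least 8 of 9 pairs, and since the members were chosen by these values nothing is read from the 3. The other Nfix probe set above the filter, 1459909_at, gave -0.07 ± 0.31, with 4 of 9 pairs below 0. The last, 1451443_at, lay below the filter at a mean of 5.52 and gave -0.04 ± 0.16. The suffix _x_at marks a probe set whose probes may also match other transcripts.

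Leaving out the pairs whose arrays resembled another line (betaD5 1 and cRAF_cMYC 3) gave a mean Nfix difference of -0.37 ± 0.45 (SD, n = 7 pairs), with 6 of 7 below 0. Without betaD5 2 and 3 it was -0.44 ± 0.45, with 7 of 7 below 0. Without any betaD5 pair, a choice made after the values had been seen, it was -0.28 ± 0.16 (SD, n = 6 pairs), with 6 of 6 below 0. The mean of betaD5 alone was -0.85 ± 0.85, against -0.27 ± 0.04 in cRAF_cMYC and -0.29 ± 0.25 in A2C12 (SD, n = 3 pairs each). The difference between these lines was not tested.

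**Figure D2:**
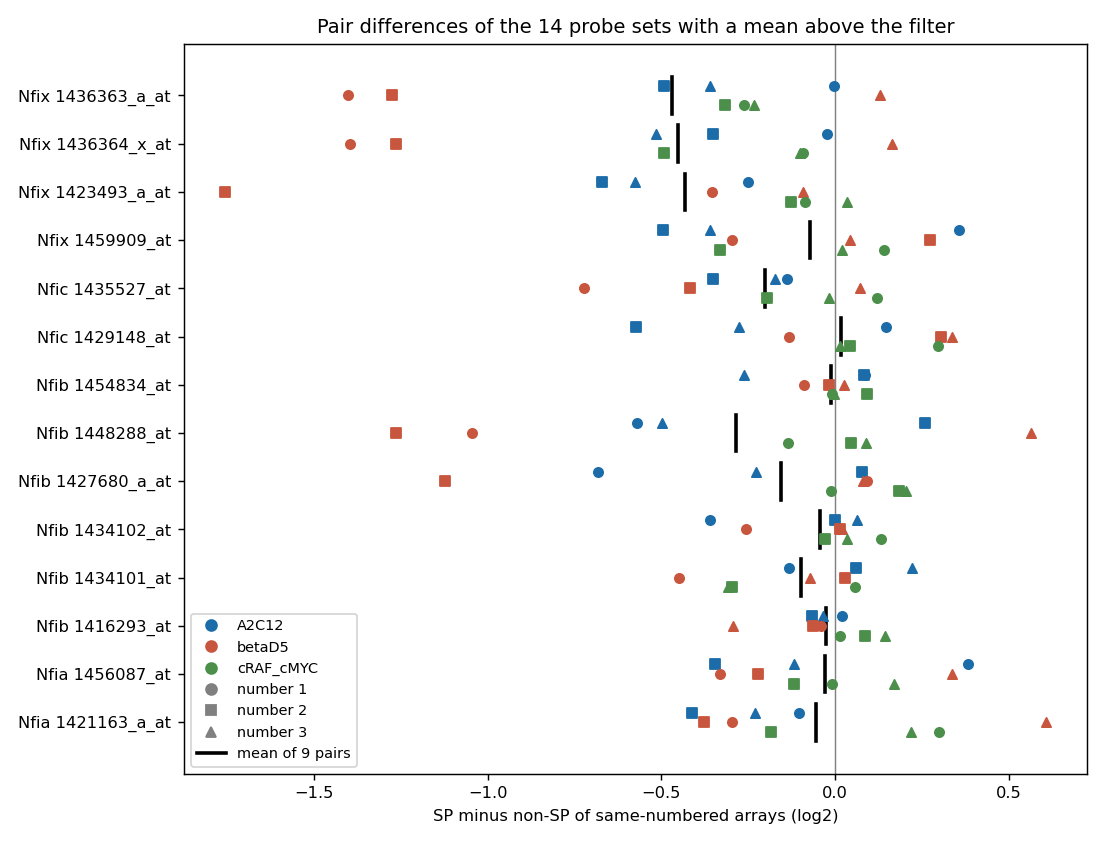
SP minus nonSP differences (log2) of same-numbered arrays for the 14 nuclear factor I probe sets with a mean above the filter, coloured by line, with the replicate number as the symbol and the mean of 9 pairs as a black bar. The first 3 Nfix probe sets lie left of 0 in 8 of 9 pairs, with betaD5 1 or 2 farthest left, whereas Nfia and the most intense Nfib probe set lie around 0.

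Nfic was lower in SP cells by a smaller amount. By 1435527_at, A2C12 read 11.18, 11.40 and 11.60 in SP cells and 11.32, 11.75 and 11.77 in nonSP cells. The betaD5 arrays read 11.91, 12.28 and 13.19 in SP cells and 12.63, 12.70 and 13.11 in nonSP cells, and the cRAF_cMYC arrays 11.74, 12.36 and 12.74 in SP cells and 11.62, 12.55 and 12.76 in nonSP cells. The pair differences were -0.14, -0.35 and -0.17 in A2C12, -0.72, -0.42 and 0.07 in betaD5, and 0.12, -0.19 and -0.02 in cRAF_cMYC. They averaged -0.20 ± 0.26 (SD, n = 9 pairs), with 7 of 9 below 0. Without betaD5 1 and cRAF_cMYC 3 the mean was -0.15 ± 0.20 (SD, n = 7 pairs), with 5 of 7 below 0, and without betaD5 2 and 3 it was -0.21 ± 0.27, with 6 of 7 below 0. Among the other 4 Nfic probe sets, 1429148_at, the only one above the filter, gave 0.02 ± 0.30 with 3 of 9 below 0, so the Nfic probe sets did not agree. Below the filter, 1450661_x_at gave -0.16 ± 0.19 with 7 of 9 below 0, 1427665_a_at -0.09 ± 0.32 and 1422565_s_at -0.08 ± 0.29.

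Nfib and Nfia had mean differences near 0. For Nfib 1454834_at the 9 differences averaged -0.01 ± 0.11 and ranged from -0.26 to 0.09. Other Nfib probe sets had a much lower signal in some betaD5 SP arrays and not in others. In betaD5 1, 2 and 3, 1448288_at gave -1.04, -1.26 and 0.57, 1427680_a_at gave 0.09, -1.12 and 0.08, and 1438244_at, just below the filter at a mean of 6.51, gave -0.73, -1.28 and 0.35. Over 9 pairs 1448288_at averaged -0.28 ± 0.61, 1427680_a_at -0.16 ± 0.45 and 1438244_at -0.30 ± 0.49 (SD). Without betaD5 1 and cRAF_cMYC 3 these means were -0.23 for 1448288_at, -0.24 for 1427680_a_at and -0.30 for 1438244_at. The remaining Nfib probe sets averaged -0.04 for 1434102_at, -0.10 for 1434101_at and -0.03 for 1416293_at. For Nfia 1456087_at the mean was -0.03 ± 0.27, with 6 of 9 below 0. Its other probe set above the filter, 1421163_a_at, gave -0.05 ± 0.35, and the 4 Nfia probe sets below the filter gave -0.04 (1446990_at), -0.10 (1438236_at), 0.08 (1421162_a_at) and 0.06 (1427733_a_at).

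Set among all 10916 genes tested, each by its most intense probe set, the mean of the 9 pair differences ranked 9th from the lowest for Nfix, 185th for Nfic, 3728th for Nfia and 4512th for Nfib. The median over all genes was 0.01, the SD 0.11 and the 1st percentile -0.23. These ranks describe the rule's own values. Within betaD5 Nfix ranked 5th and Nfic 118th, within A2C12 Nfix 161st and Nfic 377th, and within cRAF_cMYC Nfix 359th and Nfic 4040th. Without betaD5 1 and cRAF_cMYC 3, Nfix ranked 28th and Nfic 583rd over the 7 pairs left, and within betaD5 Nfix ranked 99th and Nfic 1908th. Without any betaD5 pair, Nfix ranked 90th and Nfic 888th.

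Nfix and Nfic had similar profiles over the arrays. By the most intense probe set of each, their levels correlated at r = 0.98 over the 18 arrays, or 0.96 after median centring. Their pair differences correlated at r = 0.87 over the 9 pairs. The points share lines and pairs, and betaD5 1 and 2 lie far from the rest. The r of the pair differences was 0.76 over the 7 pairs without betaD5 1 and cRAF_cMYC 3, and 0.46 over the 6 pairs without betaD5, so the r of 0.87 rests on the betaD5 pairs. Over arrays the r of Nfix and Nfic was 0.97 and 0.98 with the same pairs left out. The r depended on the probe set. Nfix 1436363_a_at and Nfic 1429148_at gave 0.78 over the 18 arrays, 0.48 after centring and 0.16 over the 9 pairs. With Nfic 1435527_at, in the same order, Nfix 1436364_x_at gave 0.98, 0.95 and 0.89. There 1423493_a_at gave 0.76, 0.65 and 0.50, and 1459909_at 0.89, 0.71 and 0.37. By the most intense probe sets, the pair differences of Nfix also correlated with those of Nfia, at r = 0.77 over 9 pairs and 0.97 over the 6 pairs without betaD5. With those of Nfib the r was 0.285 and 0.21. Over the 18 arrays the r of Nfix was -0.02 with Nfia and 0.70 with Nfib as deposited, or -0.45 and 0.47 after median centring. Of all genes tested, Nfix and Nfic were each the gene with the highest r over arrays to the other. For Nfix the next as deposited were Zbtb12 (0.96), Bcl9l (0.95), Gh (0.94) and Ammecr1l (0.94). After median centring these r were 0.93, 0.915, 0.69 and 0.89. For Nfic the next were Ghdc (0.97), Zbtb12 (0.97), Zzef1 (0.97) and Ammecr1l (0.97), or 0.89, 0.94, 0.89 and 0.88 after centring. Over the 9 pair differences the closest to Nfix were Braf (0.95), Bcl9l (0.92), Pggt1b (0.92), Htt (0.91) and Plekha8 (0.89). For Nfic they were Fgf18 (0.96), Htt (0.93), Zbtb12 (0.93), Sv2a (0.92) and Cdc42bpb (0.91). The Nfib levels were nearest those of Dubr (0.98), Kitl (0.98), BC034090 (0.98), Pmaip1 (0.98) and Gng12 (0.98), and the Nfia levels those of Dag1 (0.93), Cryz (0.92), Ppm1m (0.90), Spc24 (0.89) and Atg10 (0.89). Over the 9 pair differences Nfib was nearest Tmem63b (0.92), Cnnm1 (0.92), Nrp (0.84), Raver1 (0.84) and Mir142 (0.83), and Nfia nearest Mycn (0.96), Rps26 (0.96), Tmem170 (0.95), Col5a2 (0.95) and Nudt2 (0.94).

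The 3' to 5' signal ratio of Gapdh, a measure of RNA and cDNA length, was higher in the SP array of betaD5 2 and 3, by 0.66 and 0.93 on the log2 scale, and lower in that of cRAF_cMYC 2, by -0.56. In betaD5 1, with the most negative Nfix difference by 1436363_a_at, the SP array's ratio differed by -0.23. The same ratio of Actb differed by 0.88 and 0.79 in betaD5 2 and 3, 0.03 in betaD5 1, 0.33 in A2C12 1 and -0.43 in cRAF_cMYC 2. Over the 9 pairs the Nfix difference and the difference of the Gapdh ratio correlated at r = 0.11, and the Nfic difference at r = 0.26. The r with the Actb ratio was not computed. The mean level per gene of the mesenchymal markers was higher in SP in 3 of 9 pairs, ranging from 10.49 to 12.94 in SP and from 10.55 to 12.96 in nonSP arrays (log2). The leukocyte markers above the filter (3 of 5, with Ptprc and Cd79a below it) were higher in SP in 2 of 9 pairs, ranging from 6.97 to 8.61 in SP and from 7.01 to 8.81 in nonSP arrays. Kdr, the 1 endothelial marker of 3 above it (Pecam1 and Cdh5 were below), was higher in SP in 2 of 9 pairs, at 6.39 to 7.71 in SP and 6.41 to 7.72 in nonSP arrays. The 4 epithelial markers above it were higher in SP in 5 of 9 pairs, at 7.32 to 8.60 in SP and 7.33 to 8.52 in nonSP arrays. The part of these in the Nfix result was not tested.

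**Figure D3:**
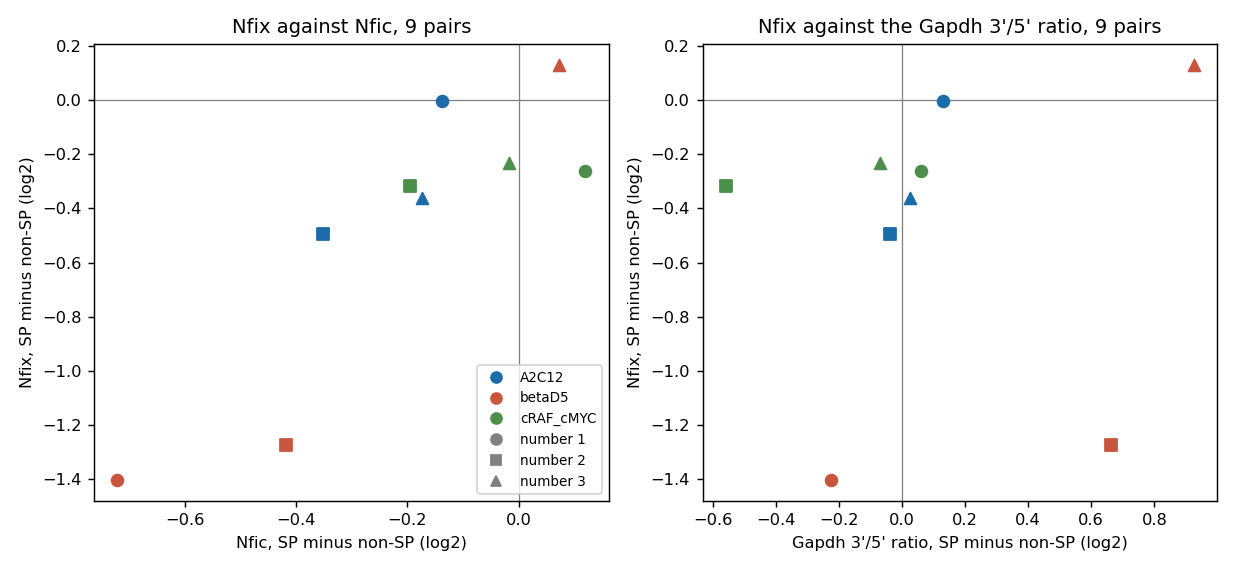
Nfix SP minus nonSP difference (1436363_a_at, log2) against that of Nfic (1435527_at, left) and against the difference of the Gapdh 3' to 5' ratio (right) in 9 pairs, coloured by line. Both genes are most negative in betaD5 1 and 2 (r = 0.87, or 0.46 without betaD5), whereas r with the Gapdh ratio is 0.11.

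Between the lines, Nfib separated A2C12 from the others. By 1454834_at, the 6 A2C12 arrays had a lowest, median and highest level of 8.18, 8.83 and 9.08, and the 12 arrays of the other lines 10.41, 10.75 and 11.08. In SP cells, A2C12 averaged 8.71 ± 0.47, betaD5 10.86 ± 0.21 and cRAF_cMYC 10.65 ± 0.20 (SD, n = 3). In nonSP cells, A2C12 averaged 8.74 ± 0.28, betaD5 10.89 ± 0.24 and cRAF_cMYC 10.62 ± 0.18. The betaD5 and cRAF_cMYC ranges overlapped, whereas those of A2C12 and the other lines did not. The A2C12 mean differed from that of the others by -2.03 on the log2 scale, and the other lines' level was 4.07-fold the A2C12 level. After median centring the difference was -1.51 (2.85-fold) and after quantile normalization -1.43, so that the direction stayed the same.

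As deposited, 6 of the 7 Nfib probe sets had all A2C12 arrays below all other arrays, with differences of -2.28 to -1.49. Across the array, 21.1% of probe sets did so and 1.38% had all A2C12 arrays above. After median centring 5 of 7 Nfib probe sets lay below, against 7.13% of all probe sets, and 1 of 7 above, against 5.66%. The exception was 1416293_at, with a difference of -0.0030 as deposited and 0.51 after centring, where A2C12 was above the others. The probe sets of Nfib therefore disagreed on the direction of its level in A2C12.

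**Figure D4:**
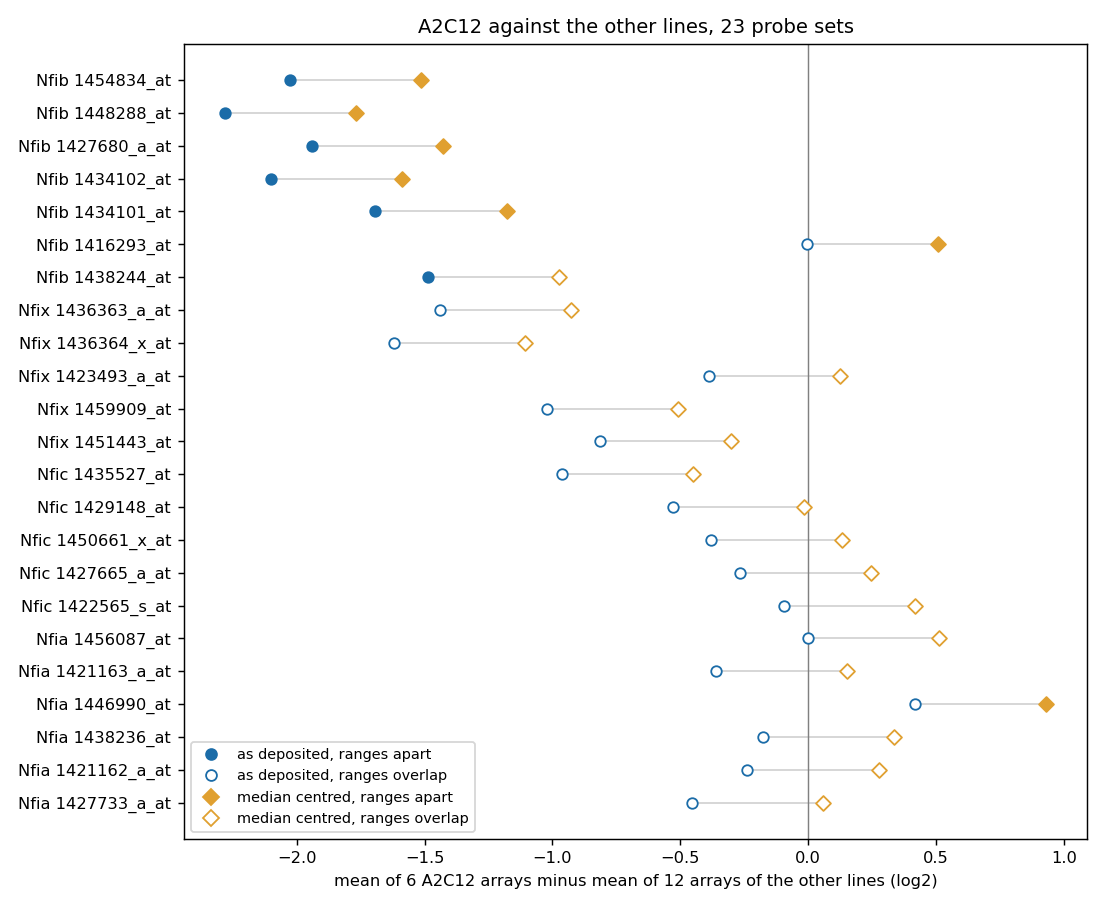
Mean of 6 A2C12 arrays minus the mean of 12 arrays of the other lines (log2) for all 23 probe sets, as deposited (circles) and median centred (diamonds). Filled symbols mark probe sets whose A2C12 and other arrays do not overlap. All but 1 Nfib probe set lie at -0.98 or lower on both scales.

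The most intense Nfix and Nfic probe sets were lower in A2C12, with ranges that overlapped those of the other lines. For Nfix 1436363_a_at the lowest, median and highest of 6 A2C12 arrays were 10.25, 10.82 and 11.39, and of the 12 other arrays 11.11, 12.48 and 13.10. In nonSP cells the mean was lowest in A2C12 at 10.91 ± 0.59, then 12.19 ± 0.72 in cRAF_cMYC and 12.80 ± 0.15 in betaD5 (SD, n = 3 each). The cRAF_cMYC range overlapped that of A2C12 and that of betaD5, whereas the A2C12 and betaD5 ranges did not overlap. The difference was -1.44 as deposited and -0.93 after centring. The probe set 1423493_a_at gave -0.39 as deposited but 0.13 after centring, so its direction turned. The remaining Nfix probe sets kept theirs. As deposited and after centring, 1436364_x_at gave -1.62 and -1.11, 1459909_at -1.02 and -0.51, and 1451443_at -0.82 and -0.30. For Nfic 1435527_at the difference was -0.96, or -0.45 after centring, with nonSP means of 11.61 ± 0.26 in A2C12, 12.31 ± 0.60 in cRAF_cMYC and 12.81 ± 0.26 in betaD5. Here too the cRAF_cMYC range overlapped both others, and the A2C12 and betaD5 ranges did not overlap. The other 4 Nfic probe sets lay between -0.53 and -0.10 as deposited. After centring, 1429148_at was at -0.01 and 1450661_x_at, 1427665_a_at and 1422565_s_at turned to 0.13, 0.25 and 0.42, so the probe sets of Nfic disagreed on the direction of its level in A2C12. For Nfia 1456087_at the nonSP means were 9.52 ± 0.06 in A2C12, 9.58 ± 0.61 in betaD5 and 9.46 ± 0.42 in cRAF_cMYC, which all overlapped. The difference of A2C12 from the others was -0.0019 as deposited and 0.51 after centring. On the same scales 1446990_at, below the filter, gave 0.42 and 0.93, with all A2C12 arrays above all others after centring. The rest turned: -0.36 and 0.15 for 1421163_a_at, -0.18 and 0.34 for 1438236_at, -0.24 and 0.28 for 1421162_a_at, and -0.45 and 0.06 for 1427733_a_at. Without betaD5 1 and cRAF_cMYC 3 the nonSP differences of A2C12 from the mean of the other lines were -1.96 for Nfib, -1.46 for Nfix, -0.88 for Nfic and 0.08 for Nfia. With all arrays they were -2.01 for Nfib, -1.58 for Nfix, -0.95 for Nfic and -0.0026 for Nfia.

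Lists of genes that nuclear factor I proteins are known to regulate, and of their partners and upstream factors, were tested in the same fits. These lists were chosen with earlier results of these data known, so calls among their members are descriptive. Of 33 regulated genes 22 lay above the filter, and of 9 partners and upstream factors 6. In SP against nonSP cells, limma called 0 of 10916 genes (0%) in A2C12, betaD5, cRAF_cMYC and the mean of the lines at a Benjamini-Hochberg adjusted p under 0.05, and an unadjusted p under 0.05 was reached by 1 gene in A2C12, 14 in betaD5, 18 in cRAF_cMYC and 36 for the mean. With the pair as a block it also called 0 (0%), and the unadjusted counts were 187 in A2C12, 1298 in betaD5, 899 in cRAF_cMYC and 1437 for the mean. No list member passed in any of these 4 contrasts. In the fit without the block, the regulated genes with the smallest p for the mean of the lines were Agt and Edn2. Agt, the precursor of angiotensin, was at -0.27 (SE 0.19), and Edn2, an endothelin, at 0.45 (SE 0.35). Those of the partners were Notch1, a receptor, at 0.21 (SE 0.20) and Ski, a corepressor of Smad proteins, at 0.08 (SE 0.14). This fit leaves the pairing out, so these SEs include the spread between pairs. With the pair as a block the SE was 0.08 for Notch1 and 0.05 for Ski. The median difference was -0.02 over the regulated genes and 0.07 over the partners, beside 0.01 over all genes.

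Among nonSP cells, A2C12 was set against the mean of betaD5 and cRAF_cMYC. Limma called 323 genes higher (2.96%) and 5374 lower (49.2%) as deposited, with a median difference over all genes of -0.58, and 1301 higher (11.9%) and 1794 lower (16.4%) after median centring. Of the 22 regulated genes, 3 were higher and 10 lower as deposited, and 5 were higher and 5 lower after centring. Apcdd1, an inhibitor of Wnt signalling, was lower in A2C12 by -2.62 (SE 0.32, adjusted p = 1.12e-05 in limma), and by -2.08 after centring. The fit treats same-numbered SP and nonSP arrays as independent, so p-values between lines may be too small. Col1a2, a chain of type I collagen, differed by -1.97 (SE 0.18), Ezh2, a histone methyltransferase, by -1.45 (SE 0.32), Cdh2, N-cadherin, by -1.30 (SE 0.24) and Pdpn, a glycoprotein of type I alveolar cells, by -1.06 (SE 0.19). Agt was higher by 1.60 (SE 0.29). After centring the difference was -1.43 for Col1a2, -0.92 for Ezh2, -0.76 for Cdh2, -0.53 for Pdpn and 2.14 for Agt, and all 6 genes were called on the deposited, centred and quantile-normalized scales. Col1a2 and Cdh2 are also in the list of mesenchymal markers, whose mean level was 10.49 to 10.96 in A2C12, 11.41 to 12.71 in betaD5 and 11.63 to 12.96 in cRAF_cMYC arrays, and the part of this difference was not tested.

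Of the 6 partners and upstream factors, 3 were lower in A2C12 as deposited: Smad3, a TGF-beta signal transducer, by -0.88, Ski by -0.61 and Pou3f2, a POU-domain factor, by -0.62. None of these was called after centring, and instead Tgfb1 (0.96), the ligand, Notch1 (0.74) and Tgif1 (0.66), a homeodomain repressor, were called higher. As deposited, 1 of the 6 was called without nonSP array 1 of A2C12, and 1 without betaD5 2 and 3. In betaD5 against cRAF_cMYC nonSP cells, limma called 0 genes (0%), and 689 had an unadjusted p under 0.05. Once betaD5 1 and cRAF_cMYC 3 were left out, limma called 1222 genes at an adjusted p under 0.05.

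**Figure D5:**
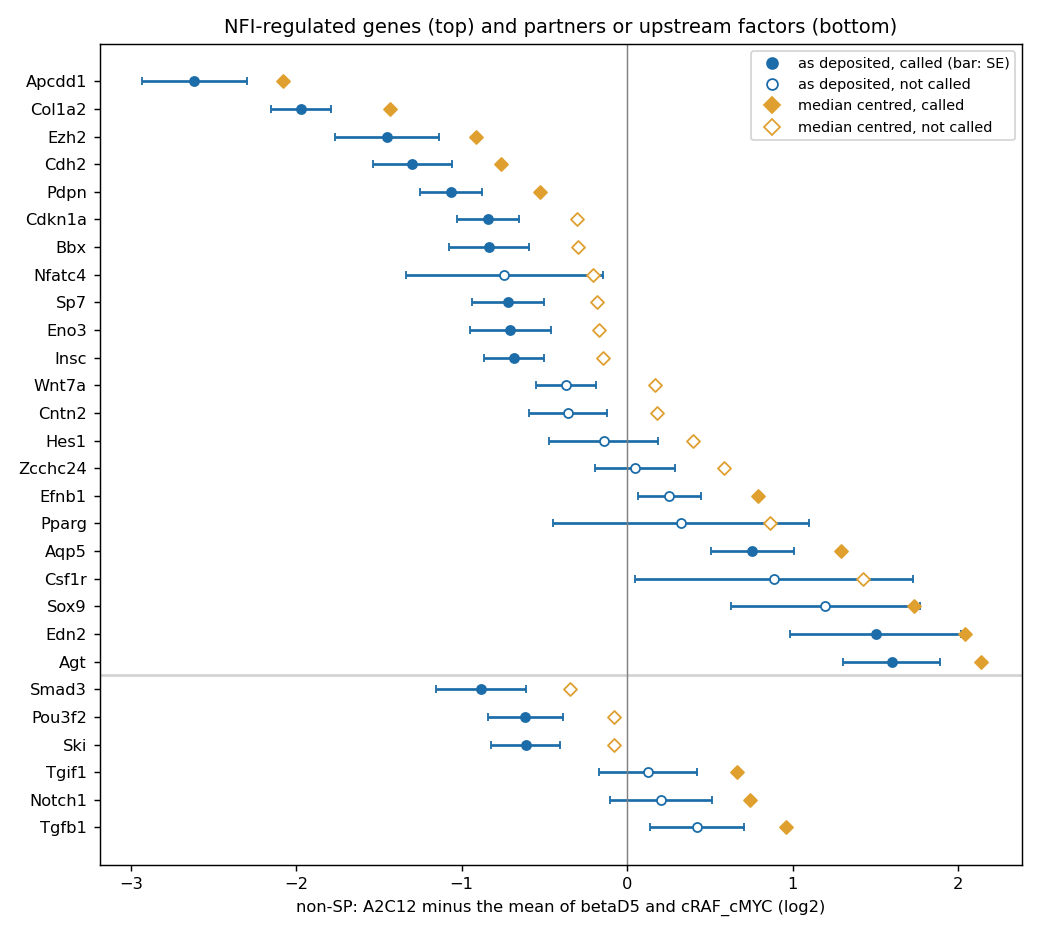
A2C12 minus the mean of betaD5 and cRAF_cMYC in nonSP cells (log2) for 22 regulated genes (top) and 6 partners or upstream factors (bottom), as deposited with the SE (circles) and after median centring (diamonds). Filled symbols are called at an adjusted p under 0.05, and centring moves every gene to the right, so that Smad3, Pou3f2 and Ski lose their call and Tgif1, Notch1 and Tgfb1 gain one.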

How the data were processed

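Expression had been measured on Affymetrix 3' arrays. Per the labels' protocols, 200 ng of total RNA gave 10 µg of biotin-labelled cRNA, and the submitters' processing notes name Affymetrix Expression Console. Its version, summary algorithm and normalization are not given in the sources used here. The authors deposited log2 signals for 45101 probe sets on each of 18 arrays. Precision is limited by the number of arrays.

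No further normalization was applied. The 64 control probe sets, 932 probe sets with several symbols and 9160 without one were left out, 34741 of the 34945 others were matched to current names, and a gene's most intense probe set on average stood for it. The lowest 40% of genes (mean under 6.53) were not tested, which left 10916. R 4.3.3 with limma 3.58.1 (lmFit, contrasts.fit, eBayes with trend) fitted all 18 arrays as 6 group means with 12 residual degrees of freedom, two-sided, with Benjamini-Hochberg adjustment over all genes tested and a threshold of 0.05. The fits were tested on simulated data. Python 3.11.15, pandas 2.3.3 and numpy 2.4.6 were used for the members. Promoters were RefSeq's.

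The members and gene lists were chosen with earlier results of these data known. The rule for names took every member probe set, up to 6 members of a list past the threshold by smallest p or the 2 with the smallest p where none passed, the 5 genes with the highest Pearson r to each member, and Abcg2.

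Replicate numbers pair the arrays by the values: deviations from group means of same-numbered arrays correlated at 0.426 to 0.953 in all 9 pairs. The pairing of betaD5 2 and 3 is not settled by this. A fit with line and number as a block (6 residual degrees of freedom) was an alternative. The others were quantile normalization, median centring, no filter or a 60% filter, every probe set or their mean, no variance trend, each array or pair left out, and the pairs named in the text left out.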

Additional observations from a re-analysis of the deposited data

Results flagged for a closer look

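Over the 46 sets of member values examined (the 9 pair differences and the 6 A2C12 levels of each probe set), 4 held a value or a pattern that stood out, 5 in all. The limit for a single outlying value is a 95% critical value, which chance alone passes in about 1 set in 20. In the Nfix probe set 1423493_a_at, the pair betaD5 2 lay far from the other 8 pair differences, at -1.76. In the Nfic probe set 1427665_a_at, which lies below the filter, the pair cRAF_cMYC 1 stood apart at 0.64. In the Nfib probe set 1416293_at the pair betaD5 3 stood apart at -0.29. In that same Nfib probe set every betaD5 pair was lower in SP cells and every cRAF_cMYC pair was higher, and the mean differences of these lines differed by -0.21, which was not tested. The level of the Nfib probe set 1434102_at in nonSP array 1 of A2C12, 7.05, lay apart from the other A2C12 arrays.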

How the results depend on the processing

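Over the 38 results recomputed, 693 values under an alternative were taken as unchanged and 29 as moved. A count was taken as unchanged if it equalled the main count or lay within a fixed ratio of it. A member difference or level was taken as unchanged if it moved by less than the SD, whatever its direction. For each member the SD of the 9 pair differences exceeded the size of their mean, as for Nfix (0.53 against -0.47). Loss of such a difference would therefore also have been taken as unchanged, and the tally does not measure how firm it is. The causes were not tested, apart from the counts under a changed filter or probe set, which test other numbers of features. With the pair (line and replicate number) as a block, limma called 0 genes in the SP contrasts, as without it. With the block, and without betaD5 1 and cRAF_cMYC 3, 15 genes were called in betaD5. With the block and without betaD5 2 and 3, the counts were 2 in betaD5, 2 in cRAF_cMYC and 1 for the mean of the lines. Leaving out each array in turn gave 0 calls in every SP contrast and in betaD5 against cRAF_cMYC, for all genes and for both lists. The A2C12 contrast among nonSP cells called 5697 of 10916 genes. It called 3544 after quantile normalization, 3095 after centring and 3848 to 6842 with each array left out. Without a filter it called 9376 of 18193 genes, and where each probe set was tested 17506 of 34945. Its count of regulated genes was 13 of 22, against 8 with 60% left out and 10 to 14 with each array left out. Where every probe set was tested, 46 probe sets of regulated genes were called. The numbers of regulated features tested in these last 2 settings, 60% left out and every probe set, are not given here. The counts of 8 and 46 are therefore no shares to set beside those over all features. Its count of partners was 3 of 6, against 6 of 9 without a filter, 1 without betaD5 2 and 3, and 1 to 3 with each array left out. Where every probe set was tested, 10 probe sets of partners were called, again with the number tested not given here. Whether the list counts differ from the shares over all genes was not tested. Among the single arrays left out, the count of 1 partner came without nonSP array 1 of A2C12. In betaD5 against cRAF_cMYC, 1222 of 10916 genes and 5 of 22 regulated genes were called without betaD5 1 and cRAF_cMYC 3. The nonSP level difference of A2C12 from the mean of the other lines was, after quantile normalization and after centring, 0.57 and 0.53 for Nfia, -1.44 and -1.47 for Nfib, and -0.36 and -0.41 for Nfic. For Nfix it was -0.97 after quantile normalization. By the mean of all probe sets it was -1.65 for Nfib and -0.32 for Nfic, and the Nfib SP difference was -0.13. For Nfix and Nfic, every other probe set had a less negative mean SP difference than the most intense one. The SP difference by the mean of all probe sets is therefore nearer 0 for both genes. With each pair left out, the mean SP difference was -0.54 to -0.35 for Nfix, -0.24 to -0.14 for Nfic, -0.02 to 0.02 for Nfib and -0.08 to 0.01 for Nfia, and the level difference -1.81 to -1.24 for Nfix, -1.12 to -0.80 for Nfic, -2.14 to -1.86 for Nfib and -0.13 to 0.17 for Nfia.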
